A study of Mus musculus with 21 samples.

Results

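The genes described here were 10 enzymes and partners of disulfide bond formation in the endoplasmic reticulum (ER) or, for *Qsox1*, in the Golgi and outside the cell: *P4hb*, *Pdia3*, *Pdia4*, *Pdia5*, *Pdia6*, *Txndc5*, *Txndc11*, *Prdx4*, *Creld2* and *Qsox1*. They were chosen by name, as protein disulfide isomerases and their partners in antibody folding, with earlier results of these data known. All 10 were found, among 53801 genes in the deposited table, and all 10 were among the 20256 genes with at least 10 counts over all libraries, which were the genes tested. An IgA molecule is built from heavy and light chains held together by disulfide bonds, and a pair of such units is joined through the J chain by further disulfides. Plasma cells make these bonds in the ER, where isomerases of the thioredoxin fold pass a disulfide to the nascent chain or reshuffle a wrong one. The isomerases are then reoxidized by oxidases and by a peroxiredoxin that uses hydrogen peroxide, and many of the genes are known targets of the unfolded protein response, which enlarges the ER of secretory cells.

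Levels were read from bulk RNA-seq of IgA+ plasma cells (IgA+ PCs) that had been sorted as CD138+ IgA+ cells from the lamina propria of the small intestine, 1 library per mouse, and all mice were on the C57BL/6 background. Zeitgeber time (ZT) is given in hours, with ZT0 at the start of the light phase and ZT12 at its end. Control mice carried floxed *Arntl* alleles without Cre (Mb1Cre-/- x Arntlfl/fl), with 6 mice at ZT0 and 6 at ZT12. Knockout mice carried the same floxed alleles with 1 copy of the Mb1-Cre allele (Mb1Cre+/- x Arntlfl/fl), with 4 mice at ZT0 and 5 at ZT12. *Arntl* encodes Bmal1, the activating factor of the circadian clock. Mb1-Cre is inserted in *Cd79a* and acts throughout the B cell lineage, so that the knockout was not limited to plasma cells, and the ages of the mice are not given in the labels. The comparisons ask whether the level of a gene depends on the time of day, on the genotype, and on both together.

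Groups were taken from the sample titles, because the genotype field of 8 of the 9 knockout libraries names the control genotype. *Cd79a*, which loses 1 intact copy when it carries Cre, lay between 163.4 and 276.2 CPM (counts scaled to the size of the library, with TMM factors) in the 9 knockout libraries and between 385.8 and 586.3 CPM in the 12 control libraries, so that the libraries were divided as the titles divide them. *Arntl* lay at 6.83 to 8.36 CPM in control ZT0 and at 4.08 to 6.47 CPM in knockout ZT0, but the groups overlapped at ZT12 (4.00 to 5.56 against 3.11 to 4.93 CPM), and counts over the whole gene do not single out the deleted exons. Libraries held 14471018 to 22785835 counts, of which immunoglobulin genes took 51.5% to 63.6%. The plasma cell markers *Igha*, *Jchain*, *Xbp1*, *Sdc1* and *Irf4* were counted in every library, whereas *Pax5*, *Cd3e* and *Muc2*, markers of other B cells, T cells and goblet cells, were at 0 in 2, 5 and 16 of the 21 libraries. In the deposited table the libraries stand in 3 runs of 7 columns, each with all 4 groups, and the runs differed along the third principal component of within-group deviations (8.47% of the variance, 5.86 to 15.5 in run 1 and -9.86 to 1.69 in the others). No source used here says what the runs are.

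Per kilobase of gene length, the members spanned almost 3 orders of magnitude. *Txndc5*, which encodes ERp46, an isomerase that introduces disulfides quickly, was the most abundant at 649.6 ± 55.3 CPM per kb (SD, n = 21), 15th of 19953 genes outside the immunoglobulin genes, and it held 46.5% of all counts of the 10 genes. *Creld2*, an ER stress-inducible protein with isomerase-like activity, followed at 388.7 ± 96.5 CPM per kb, and *Pdia4* (ERp72, an isomerase with several active sites) at 338.5 ± 64.3 CPM per kb. *P4hb*, *Pdia6* and *Pdia3* formed a close group at 148.7 ± 16.3, 144.4 ± 13.9 and 131.8 ± 15.6 CPM per kb, and their ranges over libraries overlapped. *Prdx4* and *Txndc11* lay lower still, at 59.4 ± 17.6 and 55.2 ± 3.83 CPM per kb, also with overlapping ranges. *Qsox1*, at 2.68 ± 0.39 CPM per kb, and *Pdia5*, at 0.67 ± 0.217 CPM per kb, stood below all the others in every library. *Pdia5*, which encodes the isomerase PDIR, was represented by only 7 to 30 counts per library, so that counting error alone limits what its values can show. Ranges of neighbours in this order did not overlap between *Pdia4* and *P4hb*, between *Txndc11* and *Qsox1*, and between *Qsox1* and *Pdia5*.

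**Figure D1:**
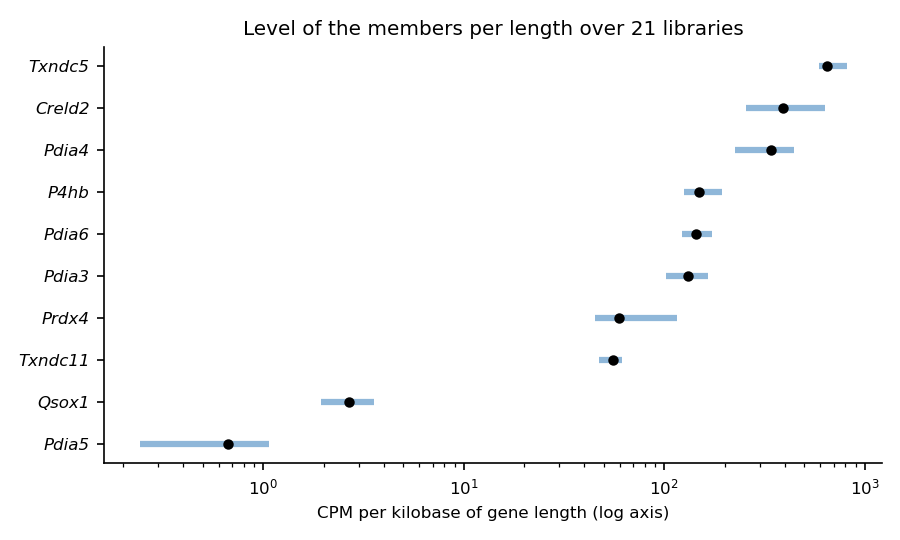
Level of the 10 genes in CPM per kilobase of gene length, on a log axis. Points are means and bars run from the lowest to the highest of the 21 libraries. *Txndc5* leads at 649.6 and *Pdia5* is lowest at 0.67.

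In control mice the comparison of ZT12 with ZT0 called 1 of the 10 genes, *Qsox1*, which was higher at ZT12. All p-values are those of edgeR's quasi-likelihood test with Benjamini-Hochberg adjustment over the genes tested, with a threshold of 0.05, unless another test is named. Of all genes tested, 1.73% were called, and 0.948% were called as higher at ZT12. At an unadjusted p under 0.05 the test passed 5 of the 10 genes, *Qsox1*, *Prdx4*, *P4hb*, *Creld2* and *Txndc5*, each higher at ZT12, against 18.1% of all genes. The log2 fold change was above 0 for 8 of the 10 genes, with a median of 0.20, against 0.01 over all genes, of which 50.6% were above 0. DESeq2, which called 8.5% of the genes that it adjusted, called 4 of the 10, adding *Prdx4*, *P4hb* and *Txndc5*. For none of the 10 did every ZT12 library lie above every ZT0 library, as 0.745% of all genes did in control mice.

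*Qsox1* (chromosome 1, 155776029 to 155812889, minus strand, in the coordinates of the deposited table) encodes quiescin sulfhydryl oxidase, which makes disulfides directly with oxygen and is found in the Golgi and outside the cell. In control ZT0 its lowest, median and highest values were 16.1, 19.2 and 22.3 CPM, and in control ZT12 they were 21.9, 25.0 and 29.7 CPM. Of the ZT12 libraries, 5 of 6 lay above the highest ZT0 library, with replicate 5 the exception. The log2 fold change was 0.38 (SE 0.09, 1.3-fold, edgeR adjusted p = 0.0403), and within the 3 runs of columns the difference was 0.29, 0.49 and 0.42. The call rested on a narrow margin. It was lost when any 1 of 8 of the 12 control libraries was left out (ZT0 replicates 1, 2, 4, 5 and 6, ZT12 replicates 2, 3 and 4), with edgeR adjusted p between 0.0167 and 0.0965 over all libraries left out in turn and log2 fold changes of 0.33 to 0.42. In knockout mice *Qsox1* read 19.23, 19.96, 20.08 and 21.52 CPM at ZT0, whereas the ZT12 libraries read 20.53, 23.73, 23.13, 23.56 and 24.2 CPM, with replicate 1 the only one within the range of ZT0. The log2 fold change there was 0.19 (SE 0.11, edgeR adjusted p = 0.66). The difference between the genotypes in this change was -0.19 (95% confidence interval -0.48 to 0.10, edgeR adjusted p = 0.627).

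**Figure D2:**
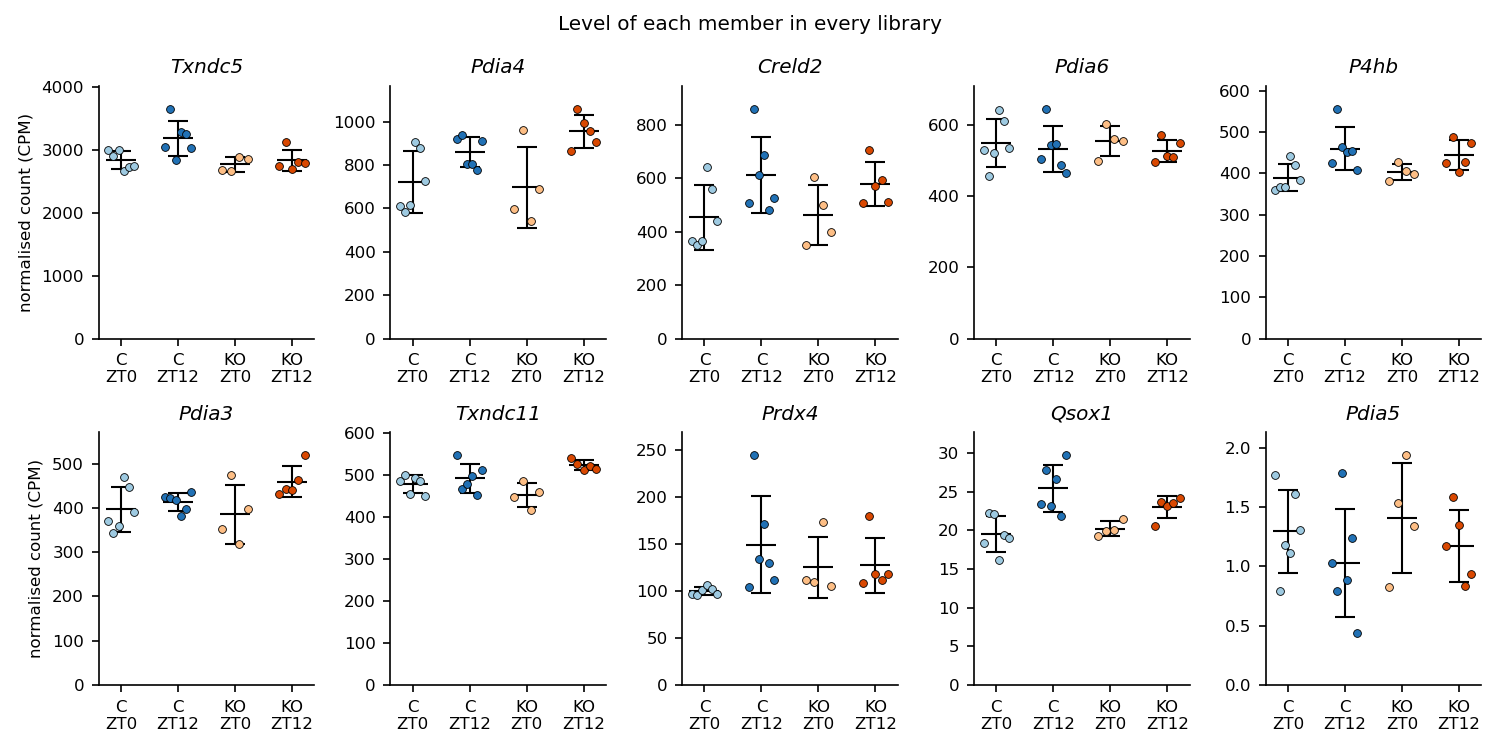
Normalised count (CPM) of each gene in every library, in control (C) and knockout (KO) mice at ZT0 and ZT12. Points are libraries in replicate order, and bars give the mean and SD of 6, 6, 4 and 5 libraries. *Qsox1* in control mice runs from 16.1 to 22.3 at ZT0 and from 21.9 to 29.7 at ZT12, and *Prdx4* has single high libraries in both knockout groups.

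*Prdx4* (chromosome X, 155323918 to 155340754, minus strand) encodes the ER peroxiredoxin, which turns hydrogen peroxide into disulfides of the isomerases. It was tightly held in control ZT0 (95.1, 99.1 and 106.1 CPM as lowest, median and highest) and spread widely in control ZT12 (104.3, 131.7 and 243.8 CPM). Of the ZT12 libraries, 5 of 6 lay above all of ZT0, and replicate 2, at 243.8 CPM, and replicate 4, at 170.5 CPM, stood highest. The log2 fold change of 0.58 (SE 0.18) was the greatest of the 10 and did not pass the threshold in edgeR (adjusted p = 0.0968), whereas it did in DESeq2 (adjusted p = 0.0172). Without control ZT12 replicate 2 the log2 fold change was 0.38 (edgeR adjusted p = 0.218), whereas without control ZT12 replicate 1 or 6 it passed the threshold (lowest edgeR adjusted p = 0.0312). In knockout mice *Prdx4* read 112, 109.6, 173.3 and 105.5 CPM at ZT0, whereas ZT12 gave 108.4, 179.3, 117.8, 111.2 and 118.1 CPM. Each knockout group thus had 1 library far above the rest, and the groups overlapped. The log2 fold change was 0.02 (SE 0.20) in knockout mice, and the difference between the genotypes was -0.56 (95% confidence interval -1.113 to -0.001, edgeR adjusted p = 0.462). At ZT0 *Prdx4* in knockout mice against control mice gave a log2 fold change of 0.33 (SE 0.20, edgeR adjusted p = 0.926), with 1 knockout library within the range of the control libraries. It was 0.13 without knockout ZT0 replicate 3, and 0.08 with the immunoglobulin share as a covariate.

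The isomerases differed among themselves. *P4hb*, the founding protein disulfide isomerase and a subunit of collagen prolyl hydroxylase, had lowest, median and highest values of 359.9, 375.7 and 441.7 CPM in control ZT0 and 407.7, 452.4 and 556.3 CPM in control ZT12. Of the ZT12 libraries, 4 of 6 lay above all of ZT0, and the log2 fold change was 0.24 (SE 0.09, edgeR adjusted p = 0.163). *Txndc5* (chromosome 13, 38500079 to 38528824, minus strand) had 2665, 2816 and 2999 CPM in control ZT0 and 2835, 3144 and 3644 CPM in control ZT12, with 5 of 6 ZT12 libraries above all of ZT0. Its log2 fold change was 0.17 (SE 0.08, edgeR adjusted p = 0.254), and under scaling by library size alone, where the median of all genes shifted to -0.20, it was -0.06. *Pdia4* had 584.7, 670.2 and 907.8 CPM in control ZT0 and 778.5, 859.5 and 939.5 CPM in control ZT12, for a log2 fold change of 0.26 (SE 0.13, edgeR adjusted p = 0.287). *Pdia3* (ERp57, which works with the lectins calnexin and calreticulin) and *Pdia6* (P5, a partner of the chaperone BiP) had log2 fold changes of 0.06 (SE 0.10) and -0.04 (SE 0.10), with 95% confidence intervals of -0.14 to 0.26 and -0.24 to 0.15. The values of *Pdia3* ran from 342.6 to 468.8 CPM in control ZT0 and from 382.5 to 435.9 CPM in control ZT12, and those of *Pdia6* from 457.4 to 642.6 and from 465.4 to 645.5 CPM, so that the ZT12 libraries of *Pdia3* lay inside the range of ZT0 and both ranges of *Pdia6* were nearly the same. *Pdia5* gave -0.33 (SE 0.33) on its few counts, with 0.79 to 1.77 CPM in control ZT0 and 0.44 to 1.78 CPM in control ZT12. The sign for *Pdia3* turned under scaling by library size alone (-0.14), and that for *Pdia6* turned to 0.01 without control ZT0 replicate 4.

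Of the remaining partners, *Txndc11*, a membrane-anchored thioredoxin-like protein, ran from 450.6 to 500.8 CPM in control ZT0 and from 451.3 to 546.4 CPM in control ZT12, with a log2 fold change of 0.04 (SE 0.08), and -0.16 under scaling by library size alone. *Creld2* had 350.9, 403.1 and 643.2 CPM in control ZT0 and 480.3, 570.6 and 860.5 CPM in control ZT12, with 2 of 6 ZT12 libraries above all of ZT0 and a log2 fold change of 0.43 (SE 0.17, edgeR adjusted p = 0.182). *Creld2* and *Pdia4* spread widely within control ZT0. Replicates 1 to 3 were low (365, 350.9 and 365.2 CPM for *Creld2*, 611.1, 584.7 and 614.9 CPM for *Pdia4*), and replicates 4 and 5 were high (643.2 and 558.6 CPM, 907.8 and 879.8 CPM), while replicate 6 lay between them (441.1 and 725.4 CPM). Replicates 1 to 3 stand in run 1 of the columns, replicates 4 and 5 in run 2 and replicate 6 in run 3. Within runs 1, 2 and 3 the log2 difference of ZT12 from ZT0 was 0.88, 0.12 and 0.19 for *Creld2* and 0.62, -0.15 and 0.22 for *Pdia4*, so that for *Pdia4* the direction turned in run 2. With the runs as a block, a fit added after the data were seen that called 2.69% of all genes, *Qsox1* (edgeR adjusted p = 0.0328), *Creld2* (0.0436) and *Prdx4* (0.0496) were called as higher at ZT12.

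**Figure D3:**
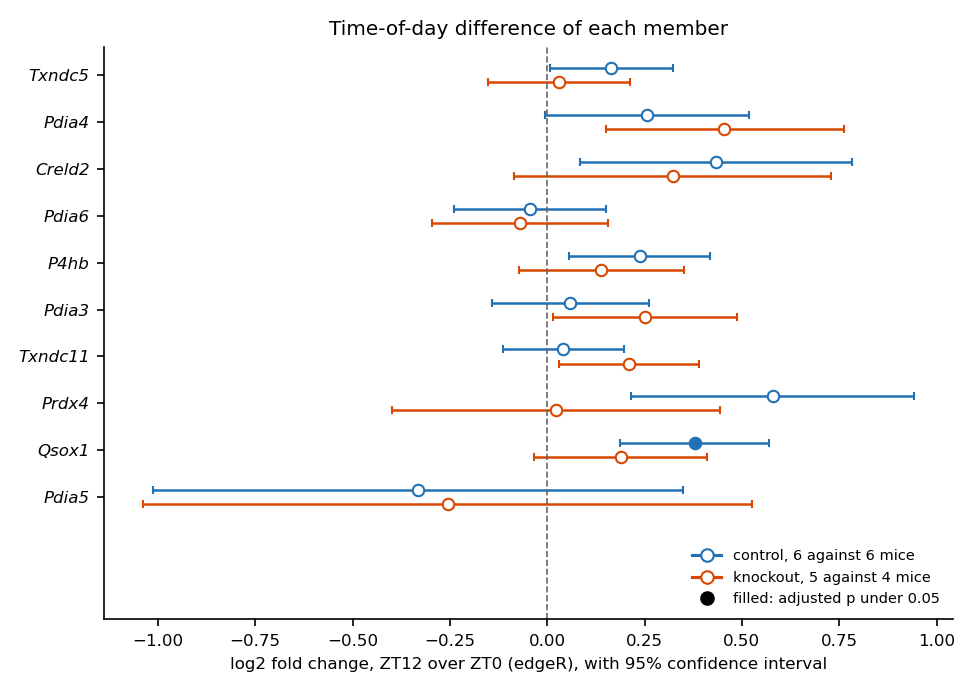
Log2 fold change of ZT12 over ZT0 for each gene in control (blue, 6 against 6 mice) and knockout (orange, 5 against 4 mice) libraries from edgeR, with 95% confidence intervals. Filled points passed an adjusted p of 0.05, as *Qsox1* in control mice at 0.38 did. Under scaling by library size alone the signs for *Pdia3*, *Txndc5* and *Txndc11* in control mice turn.

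In knockout mice edgeR called none of the 10 genes between ZT12 and ZT0, as it called 0% of all genes, and DESeq2 called 0 of the 10. At an unadjusted p under 0.05, 3 of the 10 passed, *Pdia4*, *Pdia3* and *Txndc11*, each higher at ZT12, against 8.01% of all genes. *Pdia4* read 596, 963.4, 541.4 and 687.9 CPM at knockout ZT0 and 863.7, 1059, 992.8, 956.1 and 908 CPM at knockout ZT12. Replicate 2 of ZT0 lay within the ZT12 values and the other 3 below them, and the log2 fold change was 0.46 (SE 0.15, edgeR adjusted p = 0.526). *Txndc11* was the 1 gene of the 10 in which every knockout ZT12 library (512.2 to 540.7 CPM) lay above every knockout ZT0 library (416.1 to 485 CPM), a pattern seen in 1.22% of all genes. Its log2 fold change was 0.21 (SE 0.09, edgeR adjusted p = 0.613). *Pdia3* gave 0.25 (SE 0.12, edgeR adjusted p = 0.613), with 319.4 to 473.1 CPM in the ZT0 and 431.1 to 518.2 CPM in the ZT12 libraries. The log2 fold changes of *Creld2*, *P4hb*, *Txndc5*, *Pdia6* and *Pdia5* were 0.32 (SE 0.20), 0.14 (SE 0.10), 0.03 (SE 0.09), -0.07 (SE 0.11) and -0.26 (SE 0.38), and the median of the 10 was 0.16, against 0.01 over all genes.

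The 2 genotypes were also compared directly. In the interaction of genotype and time of day edgeR called 0% of all genes and none of the 10, DESeq2 called none of the 10, and 1 of the 10, *Prdx4*, had an unadjusted p under 0.05, near the 10.8% of all genes that did. For *Pdia4* the difference was 0.20 (95% confidence interval -0.20 to 0.60, edgeR adjusted p = 0.725). Left-out libraries moved it to between 0.10 and 0.38, with values of 0.10 without knockout ZT0 replicate 3, 0.11 and 0.13 without control ZT0 replicates 4 and 5, 0.13 without knockout ZT0 replicate 1 and 0.38 without knockout ZT0 replicate 2. For the 7 genes other than *Prdx4*, *Qsox1* and *Pdia4* the difference ran from -0.13 to 0.19, with adjusted p of 0.586 or more. At ZT0 edgeR called 0.00987% of all genes, which was 2 genes, and none of the 10, with 0 at an unadjusted p under 0.05, against 4.9% of all genes, and 0 in DESeq2. At ZT12 edgeR called 0.0148%, which was 3 genes, and none of the 10, with 1 at an unadjusted p under 0.05, near the 8.83% of all genes, and 0 in DESeq2. That 1 gene was *Txndc5*, with 2835 to 3644 CPM in control and 2694 to 3113 CPM in knockout mice and a log2 fold change of -0.17 (SE 0.08, edgeR adjusted p = 0.562). *Pdia3* at ZT12 read 382.5 to 435.9 CPM in control and 431.1 to 518.2 CPM in knockout mice, with a log2 fold change of 0.15 (SE 0.10, edgeR adjusted p = 0.662). Outside these 2 genes and *Prdx4* at ZT0, the log2 fold changes by genotype ran from -0.08 to 0.12 at ZT0 and from -0.23 to 0.19 at ZT12. The comparisons with shared mice are not independent of each other.

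The level of *Prdx4* and *Txndc5* was correlated with the immunoglobulin share of the library. The share was 51.5% to 53.3% in control ZT0, and in control ZT12 it was 53.9%, 63.6%, 53.3%, 59.5%, 59.1% and 55.0% in replicates 1 to 6. It was 53.6% to 59.4% in knockout ZT0, where replicate 3 was the high library, and 53.7% to 55.7% in knockout ZT12. In bulk RNA a smaller part of cells of one type and less RNA in each of them cannot be told apart. Levels were scaled anew without immunoglobulin genes, and both measures were taken as deviations from the group mean over the 21 libraries. *Prdx4* then correlated with the share at Pearson's r = 0.77 (permutation p = 0.00563, adjusted over 10 genes 0.0281) and Spearman's rho = 0.63 (permutation p = 0.017, adjusted 0.0621). *Txndc5* did so at r = 0.70 (permutation p = 0.00247, adjusted 0.0247) and rho = 0.57 (permutation p = 0.0186, adjusted 0.0621). Without the 2 libraries whose deviation in the share lay farthest from the median deviation, r was 0.48 for *Prdx4* and 0.54 for *Txndc5*. *Txndc11* lay on the other side with r = -0.57 (permutation p = 0.0583, adjusted 0.194) and rho = -0.51 (permutation p = 0.0558, adjusted 0.139). The adjusted p of r was 0.267 or more for the remaining 7 genes, and *Qsox1* had r = 0.17 (permutation p = 0.556) and rho = 0.15 (permutation p = 0.581). Over 8806 genes the median r was -0.07 with 5th and 95th percentiles of -0.73 and 0.70, so that *Prdx4* and *Txndc5* stood at the upper end of a wide spread.

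Results that rest on the libraries with a high share were therefore also computed without them. Left out were the 4 libraries over 58%, control ZT12 replicates 2, 4 and 5 and knockout ZT0 replicate 3, in a fit added after the data were seen. The log2 fold change of *Qsox1* in control mice was then 0.38 (edgeR adjusted p = 0.216), that of *Prdx4* 0.23 (0.596), that of *Creld2* 0.28 (0.75) and that of *Txndc5* 0.07 (0.827), and 12 genes were called in all. With the share as a covariate in edgeR, no gene was called in the whole table, 1648 had an unadjusted p under 0.05, and *Qsox1* gave 0.34 (adjusted p = 0.434) and *Prdx4* 0.09 (adjusted p = 0.907). The difference between the genotypes in *Prdx4* was 0.01 with this covariate and -0.01 without the 4 libraries. Over all alternatives the adjusted p of *Qsox1* ran from 0.00265 to 0.434. The markers of gut epithelium reached their highest values at ZT12. Their summed level was 50.3 to 177.6 CPM in control ZT0 and 67.2 to 854.8 CPM in control ZT12, 66.8 to 80.9 CPM in knockout ZT0 and 60.3 to 427.9 CPM in knockout ZT12, and all 11 tested markers of 12 listed had a log2 fold change above 0 in both genotypes, with medians of 2.45 and 2.13. None was called by edgeR, 7 in control and 0 in knockout mice had an unadjusted p under 0.05, and DESeq2 called 2 and 0. With their mean as a covariate *Qsox1* gave 0.42 (edgeR adjusted p = 0.0604). The part of the epithelial markers in the differences described here was not tested beyond that.

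**Figure D4:**
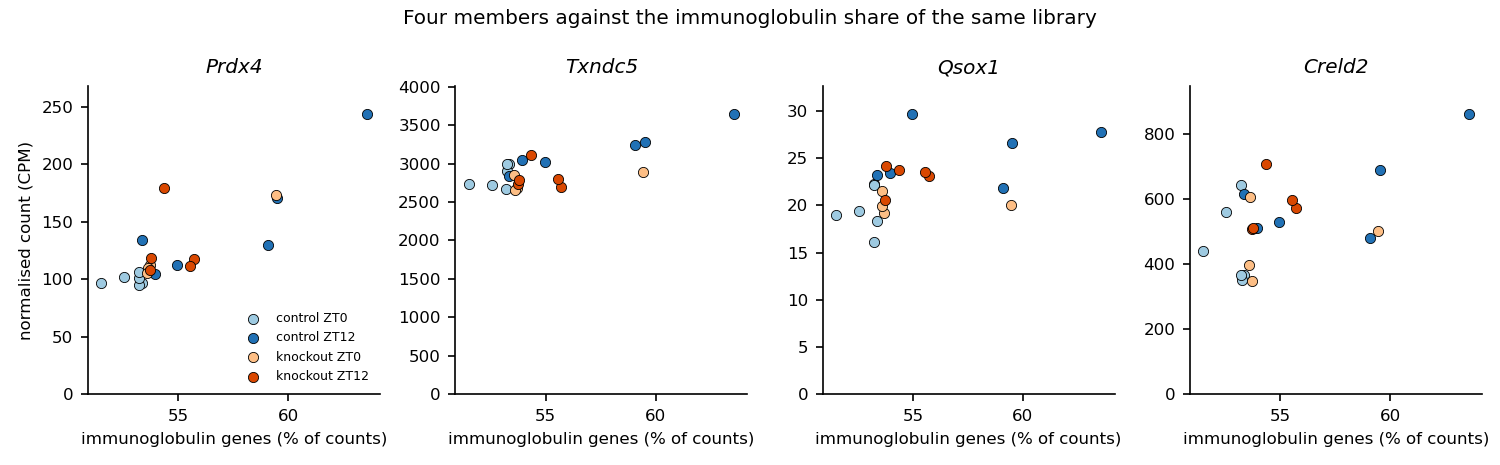
Normalised count (CPM) of *Prdx4*, *Txndc5*, *Qsox1* and *Creld2* against the percentage of all counts that fell in immunoglobulin genes, for 21 libraries coloured by group. The 4 libraries over 58% hold 3 from control ZT12, and the library at 63.6% is the highest for *Prdx4* (243.8), *Txndc5* (3644) and *Creld2* (860.5).

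Libraries of one group also differed from each other in a shared way. Deviations from the group means were correlated for all 45 pairs of the 10 genes over the 21 libraries, and 11 pairs had an adjusted permutation p of r under 0.05, each with r above 0. The same share was not computed for pairs of other genes, so that 11 of 45 cannot be read as particular to these genes. The first principal component of within-group deviations held 30% of the variance. *Pdia6* moved with *Creld2* (r = 0.89, rho = 0.87, permutation p of both 2e-05) and with *P4hb* (r = 0.89, permutation p = 2e-05, rho = 0.82, permutation p = 1e-04), and the adjusted p of r was 0.00045 for each. *Pdia3* moved with *Pdia4* (r = 0.87, permutation p = 0.00027, adjusted 0.00304, rho = 0.83, permutation p = 0.00018), and *P4hb* with *Creld2* (r = 0.79, permutation p = 0.00025, adjusted 0.00304, rho = 0.71, permutation p = 0.00064). Without the 2 libraries whose deviation lay farthest from the median for 1 gene of the pair, these 4 values of r were 0.82, 0.80, 0.76 and 0.67. *Pdia4* also moved with *Creld2* (r = 0.70, adjusted permutation p = 0.0168), *Pdia6* (r = 0.62, adjusted 0.0214) and *P4hb* (r = 0.50, adjusted 0.0377). The adjusted permutation p of rho for these was 0.0577, 0.0657 and 0.161. *Prdx4* moved with *Txndc5* (r = 0.69, permutation p = 0.00508, adjusted 0.0229, rho = 0.46, permutation p = 0.0407, adjusted 0.136), and r was 0.37 without the 2 farthest libraries. *Prdx4* also moved with *P4hb* (r = 0.67, permutation p = 0.00238, adjusted 0.0168, rho = 0.52, permutation p = 0.0131, adjusted 0.0657). It did so with *Creld2* (r = 0.61, permutation p = 0.0029, adjusted 0.0168, rho = 0.50, permutation p = 0.012, adjusted 0.0657). With *Pdia6* the values were r = 0.61 (permutation p = 0.0025, adjusted 0.0168) and rho = 0.59 (permutation p = 0.00333, adjusted 0.03). The correlated pairs were thus not separate sets. *Qsox1* stood outside these pairs, with r between -0.49 and 0.41 against the other 9 genes. The genes share library, depth and scaling, and the runs of columns separate some of these libraries, so that the part of the runs in these correlations was not tested.

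**Figure D5:**
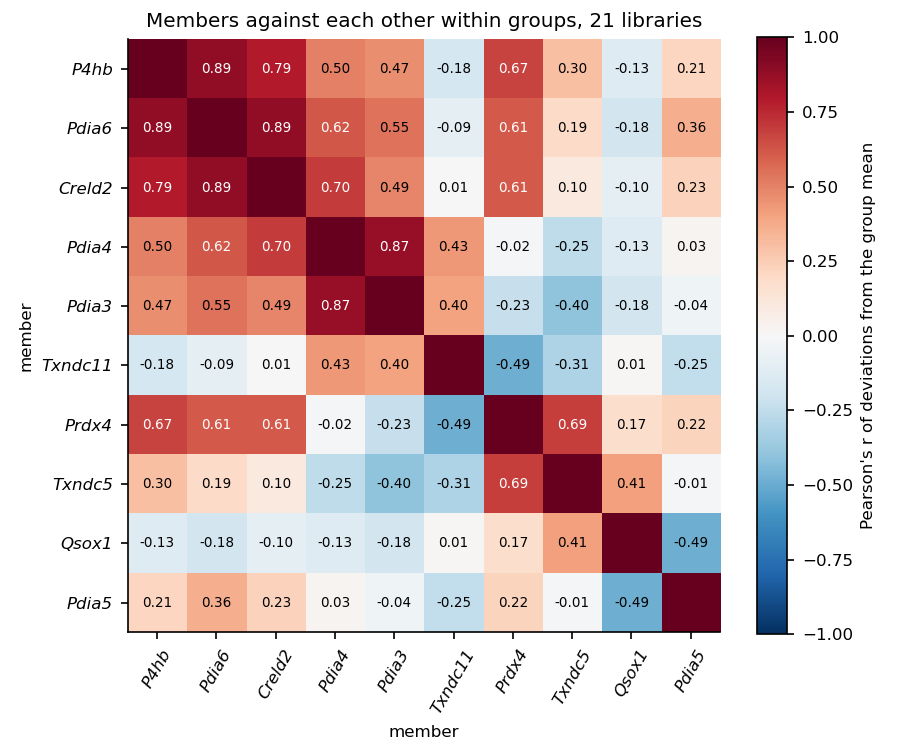
Pearson's r between the 10 genes over 21 libraries, from log2 CPM after the group means were subtracted. *P4hb*, *Pdia6* and *Creld2* have r of 0.79 to 0.89 with each other, *Pdia3* and *Pdia4* 0.87, and *Prdx4* and *Txndc5* 0.69. With *P4hb*, *Pdia6* and *Creld2*, *Prdx4* also has r of 0.61 to 0.67 and *Pdia4* r of 0.50 to 0.70.

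The promoters of 4 of the genes are shown because they hold the letters of the ER stress element, a regulatory element of the unfolded protein response. The window of *P4hb*, which was correlated with *Pdia6* and *Creld2*, held neither this element, also with 1 mismatch, nor the unfolded protein response element. Sequence outside the windows was not searched, and the part of the element in the correlations was not tested. Promoter windows came from RefSeq (GRCm38.p6) and run from 250 bases before to 50 bases after each start. All 10 genes matched, with 13 windows in all, since *Txndc5* has 3 and *Txndc11* has 2. The start of the *Prdx4* window lies 2294 bases inside the end of the gene in the deposited table. The ER stress element, CCAAT and CCACG with 9 bases of any kind between them, read on both strands, was present in the windows of *Creld2* and *Pdia6* and in 0.119% of 32851 windows of all genes. With at most 1 mismatch in the 10 fixed letters it was also present in *Pdia3* and *Pdia4*, and in 1.5% of all windows. Capitals mark this element, which lies from -126 to -108 in *Creld2* and from -108 to -90 in *Pdia4*, both on the opposite strand, and from -98 to -80 in *Pdia6* and from -29 to -11 in *Pdia3*, both on the strand of the gene.
Creld2, chr15:88819396-88819695, plus strand: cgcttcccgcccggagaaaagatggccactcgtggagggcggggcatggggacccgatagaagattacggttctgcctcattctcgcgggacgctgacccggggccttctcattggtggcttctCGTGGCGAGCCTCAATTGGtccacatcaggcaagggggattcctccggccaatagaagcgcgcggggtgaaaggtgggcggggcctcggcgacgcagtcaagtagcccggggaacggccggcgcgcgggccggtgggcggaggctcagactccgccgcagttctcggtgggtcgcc
Pdia6, chr12:17266339-17266638, plus strand: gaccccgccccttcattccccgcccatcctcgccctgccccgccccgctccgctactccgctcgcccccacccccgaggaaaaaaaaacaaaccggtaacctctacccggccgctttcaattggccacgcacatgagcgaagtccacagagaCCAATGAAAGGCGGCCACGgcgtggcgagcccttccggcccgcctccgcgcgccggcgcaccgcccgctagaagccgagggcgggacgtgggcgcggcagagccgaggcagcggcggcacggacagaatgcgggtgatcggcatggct
Pdia4, chr6:47813463-47813762, minus strand: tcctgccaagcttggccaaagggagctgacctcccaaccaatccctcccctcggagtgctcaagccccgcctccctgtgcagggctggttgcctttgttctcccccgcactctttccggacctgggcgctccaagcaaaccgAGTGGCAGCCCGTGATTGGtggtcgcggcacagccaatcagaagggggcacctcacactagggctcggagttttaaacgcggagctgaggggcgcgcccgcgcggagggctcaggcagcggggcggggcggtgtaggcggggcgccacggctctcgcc
Pdia3, chr2:121413652-121413951, plus strand: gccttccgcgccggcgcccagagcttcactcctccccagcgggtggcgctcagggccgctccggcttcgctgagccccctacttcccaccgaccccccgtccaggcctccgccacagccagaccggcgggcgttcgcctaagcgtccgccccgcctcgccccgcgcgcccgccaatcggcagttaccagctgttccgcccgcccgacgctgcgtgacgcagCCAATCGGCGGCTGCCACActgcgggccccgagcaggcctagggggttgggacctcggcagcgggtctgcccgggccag

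The other elements were spread over other genes. The unfolded protein response element TGACGTGG was found in 1 window each of *Txndc5* and *Txndc11* and in 0.676% of all windows. The E-box CACGTG, a palindrome that Bmal1 and CLOCK bind, was found in *Prdx4*, from -52 to -47, and in 1 window of *Txndc5*, and in 7.15% of all windows. The D-box TTATGTAA, which PAR bZIP factors such as Tef bind, and the second form of the ER stress element (ATTGG and CCACG with 1 base between them) were in none of the 13 windows, and in 0.938% and 0.0365% of all windows. CCAAT alone, which is contained in the ER stress element, was in windows of 7 of the 10 genes and in 37.4% of all windows. *Qsox1*, the gene called in control mice, and *Pdia5* held none of these letters in their windows. A match is a description of the sequence, and the binding of a factor was not measured. The *Prdx4* window is shown with the E-box in capitals, since this gene had the greatest log2 fold change between the times of day in control mice.
Prdx4, chrX:155338411-155338710, minus strand: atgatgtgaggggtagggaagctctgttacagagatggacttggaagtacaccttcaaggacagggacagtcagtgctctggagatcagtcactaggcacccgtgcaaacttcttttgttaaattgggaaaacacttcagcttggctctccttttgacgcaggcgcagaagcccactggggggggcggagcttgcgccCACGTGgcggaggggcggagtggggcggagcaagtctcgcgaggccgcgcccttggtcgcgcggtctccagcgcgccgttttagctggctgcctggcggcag

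Other genes of the same pathway were read from fixed lists. Of 22 further genes of oxidative folding, 20 passed the count filter, and edgeR called 0 in each of the 5 comparisons. In control mice 6 of the 20 had an unadjusted p under 0.05, DESeq2 called 3, and the median log2 fold change was 0.11. The counts of this and the following lists in control mice stand beside 18.1% of all genes at an unadjusted p under 0.05 and 8.5% called by DESeq2. The smallest p belonged to *Erp29*, an ER protein with an inactive thioredoxin fold (58.2 to 73.4 CPM in control ZT0, 71.9 to 161.5 CPM in control ZT12, log2 fold change 0.58, SE 0.15, edgeR adjusted p = 0.0557), and to *Selenom*, an ER selenoprotein (25.9 to 33.9 CPM, 29.5 to 79.2 CPM, 0.82, SE 0.22, adjusted p = 0.0669). In knockout mice both were near 0, at -0.02 (SE 0.18) and -0.01 (SE 0.26), with differences between the genotypes of -0.59 (SE 0.24, edgeR adjusted p = 0.442) and -0.83 (SE 0.34, adjusted p = 0.442). *Ero1l*, the older symbol for *Ero1a*, encodes the oxidase that passes disulfides to P4hb, and it gave 0.15 (SE 0.10) in control and 0.44 (SE 0.11, edgeR adjusted p = 0.289) in knockout mice, where DESeq2 called it. It is named for its role and was chosen after its values were seen.

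Of the 12 genes that supply or drain redox equivalents, edgeR called *Prdx6*, a cytosolic peroxiredoxin, in control mice, with 46.7 to 60.3 CPM in control ZT0 and 58.6 to 72.4 CPM in control ZT12 (log2 fold change 0.33, SE 0.09, adjusted p = 0.0469). In knockout mice its log2 fold change was 0.16 (SE 0.10). Of the 15 ER chaperones and folding partners edgeR called 0, with 4 at an unadjusted p under 0.05 in control mice, led by *Ppib* (0.22, SE 0.09) and *Dnajb9* (0.24, SE 0.11), and DESeq2 called 0. The list of 11 regulators of the unfolded protein response also held the plasma cell factors *Prdm1* and *Irf4*. Of these 11 genes edgeR called 0, with 4 at an unadjusted p under 0.05 and 3 called by DESeq2 (*Ddit3*, *Prdm1* and *Xbp1*). *Prdm1*, a repressor that drives plasma cell identity, gave -0.31 (SE 0.10) and *Xbp1*, the splicing-activated factor of that response, gave 0.29 (SE 0.10, adjusted p = 0.143). Of the 4 genes whose products form complexes with P4hb it called 0, with 1 at an unadjusted p under 0.05 and 1 called by DESeq2. *Mttp*, an enterocyte lipid transfer protein, gave 2.07 (SE 0.78) and *P4ha2* 1.17 (SE 0.83). *Mttp* ran from 1.59 to 5.26 CPM in control ZT0 and from 1.52 to 42.1 CPM in control ZT12, where the median was 4.02 CPM. *P4ha2* was near the floor, at 0 to 0.42 CPM in control ZT0 and 0.04 to 1.28 CPM in control ZT12. Of the 7 antibody chain genes it called 0, with 3 at an unadjusted p under 0.05 in control mice and 2 called by DESeq2. *Igha* gave 0.36 (SE 0.12, adjusted p = 0.12), *Igkc* 0.38 (SE 0.12, adjusted p = 0.104) and *Jchain* 0.19 (SE 0.10, adjusted p = 0.308) in control mice, and -0.07 (SE 0.14), -0.07 (SE 0.14) and 0.04 (SE 0.12) in knockout mice. Among 12 clock genes edgeR called *Arntl* (-0.78, SE 0.15) and *Tef* (0.71, SE 0.09) in control mice, and *Nr1d2* by genotype at ZT0 (-2.24, SE 0.14) and ZT12 (-2.55, SE 0.13). In control mice 6 of the 12 had an unadjusted p under 0.05, and DESeq2 called 5 (*Arntl*, *Cry1*, *Nr1d1*, *Per2* and *Tef*). By genotype DESeq2 called 3 at ZT0 and 2 at ZT12, and it called *Tef* in the interaction.

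The genes whose pattern was most like that of the 10 were named by Pearson's r with the mean of their standardized log2 CPM over the 21 libraries, among 6926 genes with a mean log2 CPM over 3. They were *Fermt3* (r = 0.91), *Manf* (0.91), *Tmem248* (0.88), *Surf4* (0.88), *Nars* (0.88) and *Srm* (0.88). Of these, *Manf* encodes an ER stress-inducible secreted protein, *Surf4* a cargo receptor of ER export, *Nars* the asparaginyl-tRNA synthetase and *Srm* spermidine synthase. The choice used the group means as well, so that their levels by time of day are a description only: *Manf* had mean levels of 383.7 and 475.7 CPM in control mice at ZT0 and ZT12 and of 407.3 and 450.5 CPM in knockout mice. Among the 10 genes themselves, *Creld2* (r = 0.93) and *P4hb* (r = 0.92) lay closest to the mean and *Pdia5* (r = -0.02) farthest from it.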

How the data were processed

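IgA+ PCs of 21 mice were measured by poly-A RNA-seq. The authors deposited raw read counts per gene, not normalized. The aligner, the genome build and the strand setting are not given in the sources used here. Genes over the members in the deposited coordinates held at most 1.05% of a member's counts.

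Genes with under 10 counts in total were removed, TMM factors computed, and edgeR 4.0.16 (robust quasi-likelihood, R 4.3.3) fitted to the 4 group means with Benjamini-Hochberg adjustment over 20256 genes. The study used DESeq2, which is an alternative here (1.42.0). CPM are TMM-scaled, and log2 CPM used a prior count of 2. Permutations for correlations (100000) kept the groups, and the smallest p they can give is 1e-05. The fits were tested on simulated data. Members and lists were chosen with earlier results of these data known. The genes named were all members, genes called in each list, or else its 2 smallest p in control mice, *Igha*, *Igkc* and *Jchain* as antibody chains, *Arntl* and *Cd79a* as label checks, and the 6 genes most like the members. *Ero1l* was added after its values were seen.

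At 14471018 to 22785835 counts per library, counting error relative to the level was greatest for *Pdia5* (7 to 30 counts) and then for *Qsox1* (261 to 525 counts). Each other member had at least 1542 counts in every library. Alternatives were another scaling, filter, tool or threshold, separate groups, blocks, covariates and each library left out.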

Additional observations from a re-analysis of the deposited data

Results flagged for a closer look

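In 4 of 40 groups of libraries, taking each of the 10 genes in each of the 4 groups, 1 library stood apart from the rest by a Dixon test of the gap to its nearest neighbour at the 95% level. Chance flags about 1 in 20 such groups. All 4 were in knockout mice. *Prdx4* read 173.3 CPM in knockout ZT0 replicate 3, with the rest at 105.5 to 112 CPM, and that library had an immunoglobulin share of 59.4%, with the rest at 53.6% to 53.7%. *Prdx4* read 179.3 CPM in knockout ZT12 replicate 2, with the rest at 108.4 to 118.1 CPM. In the same library *Txndc5* read 3113 CPM, with the rest at 2694 to 2798 CPM, and the immunoglobulin share was 54.3%, within the range of its group. *Qsox1* read 20.53 CPM in knockout ZT12 replicate 1, with the rest at 23.13 to 24.2 CPM. Without knockout ZT12 replicate 2 the log2 fold change of *Prdx4* in knockout mice was -0.14, and without knockout ZT0 replicate 3 it was 0.22.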

How the results depend on the processing

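The calls in control mice depended on the setting. Of the 10 genes 1 was called, *Qsox1*, and the count was 4 with DESeq2 and 3 with the block of 3 runs of columns, which was added after the data were seen. It was 0 at a threshold of 0.01, with library size only, with own groups only, with the immunoglobulin share or the epithelial marker level as covariate, and without the libraries over 58% immunoglobulin. With the replicate block it was also 0 (*Qsox1* edgeR adjusted p = 0.0578). Correlations of same-numbered libraries ran from -0.31 to 0.35. Between control ZT12 and knockout ZT12, 3 of 5 were over 0.1, and between any other 2 groups at most 1 was. These values do not settle whether replicate numbers pair the mice. The replicate block changed no other call of the 10 genes. With each library left out in turn the count ran from 0 to 2, with 2 without control ZT12 replicate 1 or 6. The count of the other oxidative folding genes was 0, and 3 with DESeq2, 1 with library size only, 2 with filterByExpr, 1 with the gene length trend removed, 2 with the block of runs, and 0 to 2 with each library left out. In knockout mice it was 0, and 1 with DESeq2. In the knockout, interaction and genotype comparisons the count of the 10 genes called was 0 under each of these alternatives. Genes called in control mice fell from 350 to 183 with the replicate block, 38 with own groups only, 80 with the epithelial covariate, 12 without the libraries over 58% and 0 with the share as covariate, and rose to 1052 with DESeq2 and 545 with the block of runs. With each library left out they ran from 31 (without control ZT0 replicate 2) to 944 (without control ZT12 replicate 1). Signs turned with library size only for *Pdia3* (-0.14), *Txndc5* (-0.057) and *Txndc11* (-0.16) in control mice, where the median of all genes was -0.20 and that of the 10 genes -0.02, a difference of 0.18. With the share as covariate the interaction of *Prdx4* was 0.007. With each library left out, the log2 fold change of *Pdia6* in control mice ran from -0.106 to 0.008, of *Txndc5* in knockout mice from -0.007 to 0.051 and of *Prdx4* in knockout mice from -0.14 to 0.22. The causes were not tested.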
